A study of Mus musculus with 8 samples.

Results

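The collagen genes of mouse long bone were examined across 8 libraries of bone RNA. They were taken as every protein-coding gene in the deposited table whose symbol is Col, a number, a and a number, which gave 44 of the 55421 genes listed. Of these, 38 had enough reads to be tested, and Col4a3, Col4a6, Col6a4, Col17a1, Col19a1 and Col26a1 did not. The bones came from male wild-type C57BL/6 mice aged 15 weeks at the start of the experiment. On day 0, 4 mice (labelled CTRL, here vehicle 1 to 4) received saline into the peritoneum, and 4 mice (labelled DoxoR, here doxorubicin 1 to 4) received 1 injection of doxorubicin at 10 mg/kg by the same route. Doxorubicin is an anthracycline used in chemotherapy. Tibiae and femurs were taken 30 days later, cleaned, cut free of their ends and spun to remove marrow, and all 4 bones of a mouse gave 1 RNA sample. Each library therefore stands for 1 mouse and mixes the RNA of every cell type left on or in the bone, at a single dose, time and sex.

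Collagens are secreted proteins in which 3 chains wind into a triple helix, which requires a glycine at regular intervals along each chain. Fibril-forming collagens build the cables of bone, tendon and skin, and type I is the main organic component of bone matrix, made by osteoblasts. Type II fibrils, with types IX and XI, form the cartilage matrix, and type X is made by hypertrophic chondrocytes of the growth plate. Type IV forms the sheet of basement membranes, type VI forms beaded filaments around cells, and a further set sits at muscle, tendon and nerve attachments. The genes were grouped by these roles into 8 fibrillar, 7 cartilage, 8 network-forming, 6 beaded-filament, 7 muscle and tendon, and 8 other collagens.

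The repeat is visible in the genes themselves, so 1 short coding exon of each of 8 members is shown as an example. Each is the coding strand of the mouse GRCm38 genome with GENCODE M21 exon bounds, read 5′ to 3′ and in frame, and capitals mark the codons for glycine that open each repeat.
Col1a2, coding exon 8, chr6:4515481-4515534, plus strand: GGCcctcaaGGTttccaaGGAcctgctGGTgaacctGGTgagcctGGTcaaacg
Col3a1, coding exon 6, chr1:45325360-45325413, plus strand: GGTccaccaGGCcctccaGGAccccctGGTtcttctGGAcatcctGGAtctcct
Col5a1, coding exon 15, chr2:27965251-27965304, plus strand: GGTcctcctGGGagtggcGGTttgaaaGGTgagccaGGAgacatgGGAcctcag
Col11a1, coding exon 15, chr3:114108281-114108334, plus strand: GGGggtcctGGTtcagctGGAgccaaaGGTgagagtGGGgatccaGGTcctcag
Col11a2, coding exon 15, chr17:34051480-34051533, plus strand: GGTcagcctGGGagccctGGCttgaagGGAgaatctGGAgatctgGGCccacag
Col9a1, coding exon 11, chr1:24202014-24202067, plus strand: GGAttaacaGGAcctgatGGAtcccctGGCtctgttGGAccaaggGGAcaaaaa
Col4a1, coding exon 7, chr8:11245211-11245264, minus strand: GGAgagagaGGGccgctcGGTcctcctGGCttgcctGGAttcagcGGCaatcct
Col6a3, coding exon 15, chr1:90795915-90795968, minus strand: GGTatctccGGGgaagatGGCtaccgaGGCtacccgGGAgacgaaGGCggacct
Each was chosen as its gene's first inner coding exon of 54 bases with 6 repeats. A repeat is a glycine codon followed by a pair of further codons. The shared length and repeat number thus come from the choice. Col10a1, also looked at, has 0 inner coding exons and is not shown. Exons of this length made up 49.1% of the inner coding exons of the fibrillar collagens (219 of 446) and 46.2% of those of the cartilage collagens (128 of 277). They made up 18.0% in the muscle and tendon list, 9.04% among the other collagens, 8.25% in the beaded-filament list and 4.23% in the network list. The members shown for Col4a1 and Col6a3 are thus uncommon exons of their genes, whereas the fibrillar and type XI exons shown are of the usual kind.

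The tissue was checked against marker genes. All 10 osteoblast markers and all 6 osteocyte markers were detected in every library, and the summed osteoblast level ran from 2822 to 4377 CPM in vehicle mice and from 2476 to 4674 CPM in doxorubicin mice (CPM, counts scaled by library size with TMM factors). RNA of attached and enclosed tissues was present as well. The 13 skeletal muscle markers summed from 4778 to 26871 CPM in vehicle mice and from 15034 to 38700.3 CPM in doxorubicin mice, lowest in vehicle 3, and the 8 neutrophil markers from 12376 to 22328 CPM in vehicle mice and from 9882 to 20693 CPM in doxorubicin mice. In bulk RNA, more cells of a type and more RNA per cell cannot be told apart. Library totals lay between 23699525 and 35747083 counts. The collagens with the highest mean CPM, Col1a2 and Col1a1, had at least 42169 and 23146 counts in every library.

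Type I collagen dominated the collagen RNA. Col1a2 (chr6:4504814-4541544, plus strand, GRCm38) and Col1a1 (chr11:94936224-94953042, plus strand) encode its chains and together held between 69.3% and 82.8% of all collagen counts in a library. Per kilobase of transcript, Col1a2 stood at 671 ± 310.0 CPM per kb in vehicle mice and 853 ± 571 in doxorubicin mice (SD, n = 4 each). Col1a1 followed at 385 ± 173 CPM per kb in vehicle mice and 532 ± 389 in doxorubicin mice (SD, n = 4 each). Their order is not firm, because dividing by all annotated exon bases in place of 1 transcript put Col1a1 first. Over all 8 libraries, the next levels per kb were those of Col5a2 (65.0 CPM per kb), Col11a2 (46.5), Col3a1 (41.0), Col11a1 (35.5) and Col2a1 (20.0), whose ranges over libraries overlapped from each to the next. The other type V chains were lower, with Col5a1 at 8.97 CPM per kb and Col5a3 at 2.31.

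**Figure D1:**
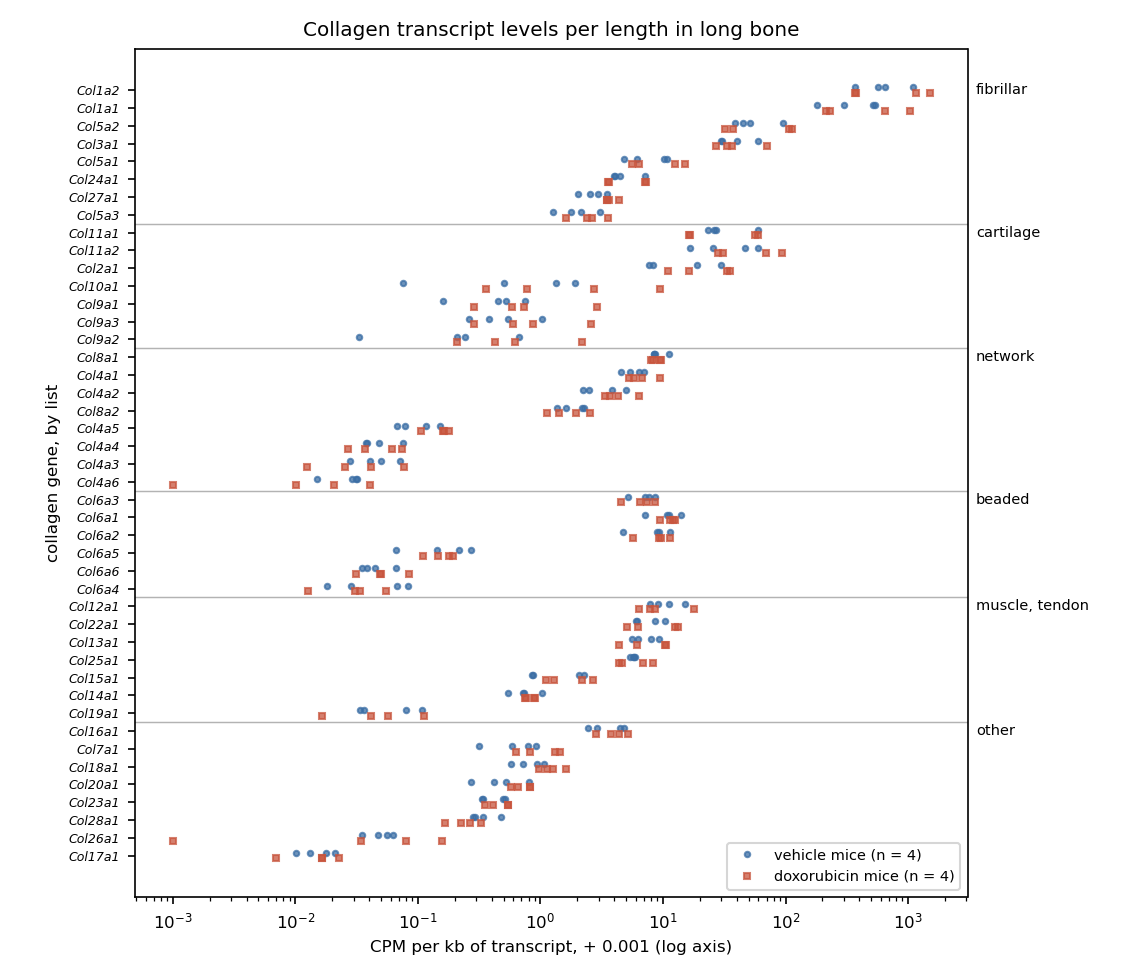
Level of each of the 44 collagen genes in CPM per kb of transcript (log axis, 0.001 added so that values of 0 can be drawn), by list; circles are the 4 vehicle mice and squares the 4 doxorubicin mice. Col1a2 and Col1a1 stand far to the right of all others, and circles and squares lie among each other in nearly every row.

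Collagen content varied more between mice of a group than the group means differed. Collagen genes took 1.19%, 0.393%, 0.685% and 0.902% of all counts in vehicle 1 to 4, and 1.13%, 1.74%, 0.513% and 0.450% in doxorubicin 1 to 4. The highest share was in doxorubicin 2 and the lowest in vehicle 2, and the groups overlapped widely, with means of 0.794% ± 0.339 and 0.959% ± 0.605 (SD, n = 4 each). Of the 38 tested genes, 29 reached their highest level in vehicle 1, doxorubicin 1 or doxorubicin 2, and doxorubicin 3 held the maximum of 5. Vehicle 2 held the minimum of 16 genes, doxorubicin 3 of 10, vehicle 3 of 8 and doxorubicin 4 of 4. The fold between the highest and the lowest library had a median of 2.83 over the 38 genes, and ran from 1.40 for Col8a1 to 126 for Col10a1.

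**Figure D2:**
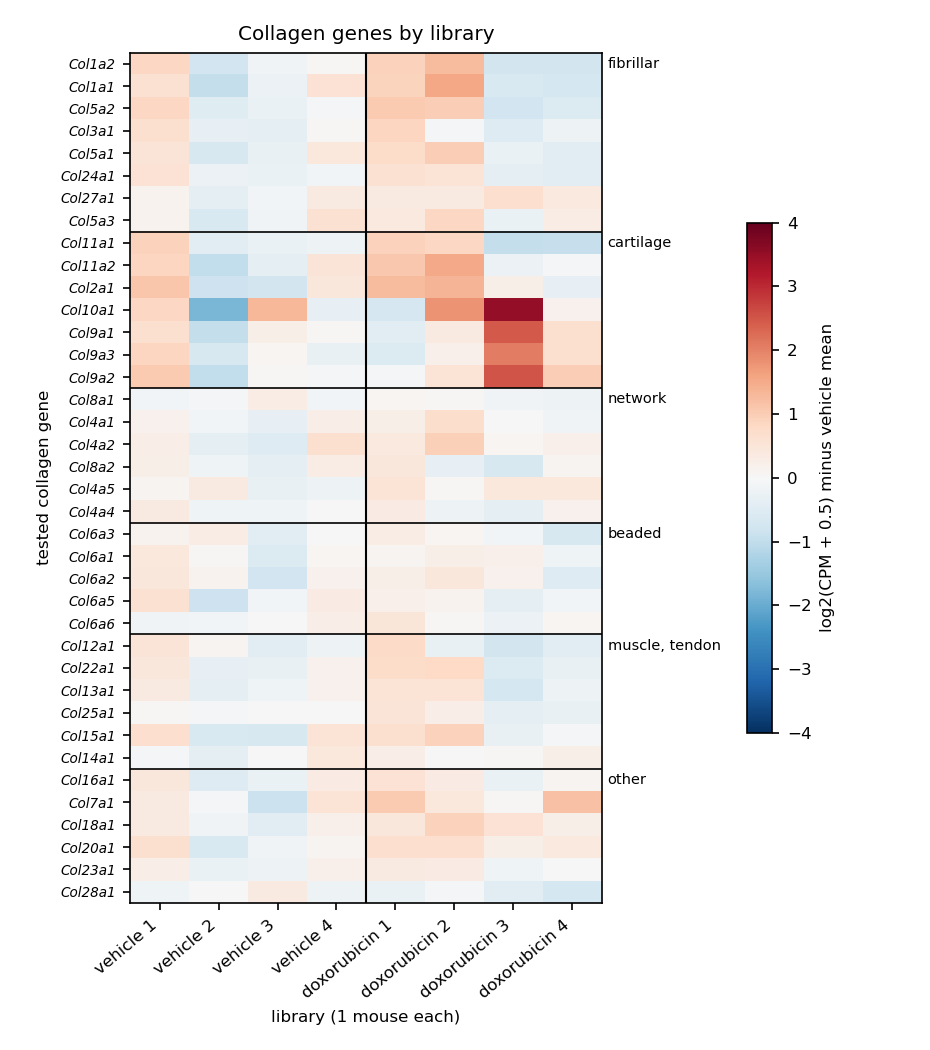
Difference of log2(CPM + 0.5) from the vehicle mean for the 38 tested collagen genes (rows, by list) in the 8 libraries (columns, 1 mouse each); red is above the vehicle mean and blue below. Vehicle 1, doxorubicin 1 and doxorubicin 2 are red in most rows, while doxorubicin 3 is red for Col10a1 and the type IX genes and blue for most fibrillar genes.

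The comparison of doxorubicin with vehicle asks whether collagen transcription in bone differed a month after the drug. No collagen gene passed the test: edgeR's quasi-likelihood test with Benjamini-Hochberg adjustment over 17035 genes called 0 of 38 collagens, and 0 of all genes (0%), at an adjusted p under 0.05. The adjusted p of the members ran from 0.856 to 0.986. At an unadjusted p under 0.05 there were 2 of 38 (5.26%), Col18a1 and Col27a1, both with higher means in doxorubicin mice, beside 5.36% of all genes in either direction and 2.13% on the higher side. The members' share was thus close to the background in either direction and above it on the higher side, on a count of 2. That count moved with single libraries. It was 4 without vehicle 1 (10.5%, beside 5.17% of all genes) and 6 without doxorubicin 1 (15.8%, beside 4.6%). It was 1 without vehicle 2 (2.63%, beside 3.71%), 0 without vehicle 3 (beside 4.4%) and 1 without doxorubicin 3 (2.63%, beside 7.74%). DESeq2 called 29 genes in all (0.17%) and limma-voom 0, in both cases with 0 collagens, and each gave 2 collagens at an unadjusted p under 0.05. In no tested collagen were all 4 mice of a group above all 4 of the other, against 3.59% of all genes, 1.64% with doxorubicin on the higher side.

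More of the differences were positive than negative, and none passed the test. Of the 38 log2 differences (doxorubicin minus vehicle), 31 were above 0, beside 57.2% of all genes, and their median was 0.24, beside 0.04 over all genes. Collagen genes vary together between mice, so the 31 are not 31 separate observations. Without doxorubicin 2, the library richest in collagen, 20 of 38 were above 0, and 19 were without vehicle 3 and doxorubicin 1 together. By list, the median log2 difference was 0.32 for fibrillar (8 of 8 tested above 0), 0.98 for cartilage (7 of 7), 0.09 for network (3 of 6), 0.07 for beaded-filament (3 of 5), 0.12 for muscle and tendon (5 of 6) and 0.33 for the other collagens (5 of 6). These medians also depended on single libraries. Over the 8 settings that each left out 1 library, the fibrillar median ran from 0.022 (without doxorubicin 2, 4 of 8 above 0) to 0.48, and the cartilage median from 0.41 (without doxorubicin 3) to 1.45. The network median ran from 0.030 to 0.25, the beaded-filament median from -0.17 to 0.15, the muscle and tendon median from -0.016 to 0.24 and that of the other collagens from 0.16 to 0.53.

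Marker lists of cell types also differed in median between the groups, and their part in the collagen values was not tested. Of 10 osteoblast markers, 8 had a log2 difference above 0, with a median of 0.30. Without doxorubicin 2, 8 were above 0 and the median was 0.13. By edgeR's quasi-likelihood test 2 of the 10 had an unadjusted p under 0.05, both on the higher side, beside 2.13% of all genes. All 13 skeletal muscle markers had a log2 difference above 0 (beside 57.2% of all genes), with a median of 0.39. Without vehicle 3, 8 of 13 were above 0 and the median was 0.016. Without vehicle 3 and doxorubicin 1 together, 2 were above 0 and the median was -0.20. Of 6 adipocyte markers, 5 were above 0, with a median of 0.98, and of 0.48 without doxorubicin 2. By edgeR's quasi-likelihood test 3 had an unadjusted p under 0.05, all on the higher side, beside 2.13% of all genes. The markers with the highest CPM, Fabp4 and Adipoq, differed by 0.069 and -0.023. The 6 markers summed from 261 to 424 CPM in vehicle mice and from 250.5 to 451 CPM in doxorubicin mice. All 8 erythroid markers were below 0, with a median of -0.37, and summed from 17695 to 35012 CPM in vehicle mice and from 13851 to 29855 CPM in doxorubicin mice. None of these markers was at 0 in any library, and none passed the adjusted threshold.

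**Figure D3:**
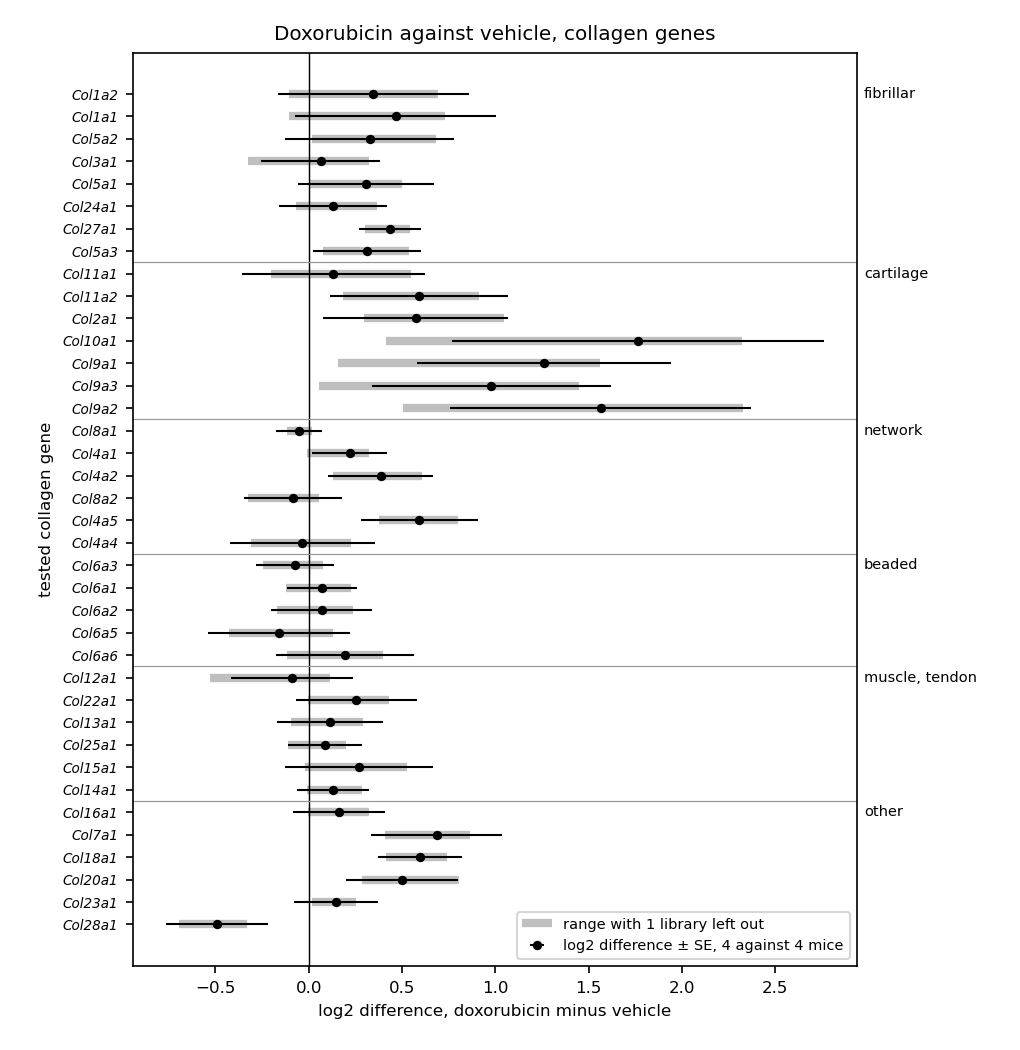
Log2 difference, doxorubicin minus vehicle, of each tested collagen gene (points, with bars of 1 SE from edgeR, 4 against 4 mice) over the range it takes when any 1 library is left out (grey). Most points lie between 0 and 0.6, and the grey ranges of type IX and type X genes are the widest.

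Among the fibrillar collagens, the chains of type I held most collagen counts, so the collagen content of the libraries largely restates their levels. Col1a1 was at 3181, 1080.0, 1783 and 3080.0 CPM across vehicle 1 to 4, against 3848, 6119, 1374 and 1272 CPM across doxorubicin 1 to 4. Col1a2 was at 5890.4, 1968, 3039.5 and 3454 CPM across vehicle 1 to 4, against 6229, 8029, 1988 and 1999.5 CPM across doxorubicin 1 to 4. Doxorubicin 2 was highest and vehicle 2 lowest for both, and doxorubicin 3 and 4 lay at the low end, inside the range of the vehicle mice. The log2 difference was 0.47 ± 0.54 for Col1a1 and 0.35 ± 0.51 for Col1a2 (± SE from the fit of 4 against 4 mice, here and for each log2 difference below), with adjusted p of 0.878 and 0.894 by edgeR's quasi-likelihood test. Without doxorubicin 2 both were -0.11.

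Col3a1 (chr1:45311538-45349706, plus strand) encodes type III collagen, which is abundant in vessel walls, periosteum and other soft connective tissue. It was at 333, 169.6, 167 and 222 CPM across vehicle 1 to 4, against 392, 203, 151 and 187 CPM across doxorubicin 1 to 4. Doxorubicin 1 and vehicle 1 were high, the other 6 libraries lay close together, and the groups overlapped. Its log2 difference was 0.064 ± 0.32, and -0.32 without doxorubicin 1. The summed level of the 8 fibroblast and periosteum markers was also highest in doxorubicin 1. It was 1782, 1615, 1760.1 and 1278 CPM across vehicle 1 to 4. Across doxorubicin 1 to 4 it was 2673, 1831, 1192 and 1199 CPM. Of the markers, Dcn, Postn, Lum and Dpt were highest in doxorubicin 1. Pdgfra was instead highest in doxorubicin 2, Ly6a and Thy1 in doxorubicin 3 and Pi16 in doxorubicin 4. The part of these markers in the result was not tested.

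Col27a1 (chr4:63214004-63334991, plus strand), a fibrillar collagen known from cartilage and the growth plate, did not follow type I. It was at 22.6, 15.5, 19.1 and 26.7 CPM across vehicle 1 to 4, against 26.7, 26.5, 33.2 and 27.4 CPM across doxorubicin 1 to 4. Vehicle 4 reached the level of doxorubicin 1, 2 and 4, so the groups met, while vehicle 1, 2 and 3 were below all doxorubicin mice and doxorubicin 3 was above every other library. The log2 difference was 0.44 ± 0.17, with an unadjusted p of 0.0252 and an adjusted p of 0.856 by edgeR's quasi-likelihood test. Leaving out any 1 library kept it between 0.30 and 0.55. The remaining fibrillar genes had differences of 0.31 for Col5a1 and 0.33 for Col5a2, the main chains of type V, which starts type I fibrils and limits their width. Col5a3, an alternative type V chain, differed by 0.31, and Col24a1, a fibrillar collagen of bone-forming cells, by 0.13.

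Since type I is built from Col1a1 and Col1a2 chains, their ratio within a library was compared as well, which needs no scaling between libraries. The ratio of Col1a1 to Col1a2 counts was 0.540, 0.549, 0.587 and 0.892 in vehicle 1 to 4, and 0.618, 0.762, 0.691 and 0.636 in doxorubicin 1 to 4. All doxorubicin ratios lay above those of vehicle 1, 2 and 3 and below that of vehicle 4. The mean log2 ratio differed by 0.10, with p = 0.6 by an exact two-sided permutation test over 70 arrangements, whose smallest possible p is 0.0286. Without vehicle 4 the difference was 0.27, with an exact permutation p of 0.0571. GC content was looked at after these values were seen, as a description. Across 14771 genes, the correlation of transcript GC content with a library's deviation from the mean was 0.45 in vehicle 4, against -0.44 in vehicle 2, -0.36 in vehicle 3 and 0.05 to 0.30 in the other 5. Col1a1 has a GC content of 58.9% and Col1a2 of 55.7%, and the part of GC content in the ratio was not tested.

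The cartilage collagens fell into 2 patterns over the libraries. Col2a1 and the type XI genes had their 3 highest levels in the libraries that were richest in type I, whereas type IX and type X were highest in doxorubicin 3, which was poor in type I. Col2a1 (chr15:97975602-98004695, minus strand), the chain of the main cartilage fibril, was at 151, 39.2, 42.3 and 95.9 CPM across vehicle 1 to 4, against 169, 180.1, 82.8 and 56.1 CPM across doxorubicin 1 to 4. Col11a1 (chr3:114030540-114220718, plus strand), a chain of type XI, which lies inside type II fibrils and is also made by osteoblasts, was at 454, 178, 199 and 207 CPM across vehicle 1 to 4, against 457, 429, 124 and 128 CPM across doxorubicin 1 to 4. Both were high in vehicle 1 and doxorubicin 1 and 2, in Col11a1 at nearly the same level in each, and the groups overlapped. The log2 difference was 0.57 ± 0.50 for Col2a1 and 0.13 ± 0.49 for Col11a1, with adjusted p of 0.858 and 0.957 by edgeR's quasi-likelihood test, and Col11a1 stood at -0.20 without doxorubicin 1. Col11a2, the other type XI chain, differed by 0.59 ± 0.48. Its level per kb was between 0.709 (vehicle 2) and 1.87 (doxorubicin 4) times that of Col11a1, and Col11a2 has a GC content of 64.1% against 48.0% in Col11a1.

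Col10a1 (chr10:34389981-34397085, plus strand), the type X chain, was at 4.16, 0.233, 6.04 and 1.59 CPM across vehicle 1 to 4, against 1.13, 8.56, 29.5 and 2.43 CPM across doxorubicin 1 to 4. Col9a1 (chr1:24177610-24252684, plus strand), a chain of type IX, which coats type II fibrils, was at 2.85, 0.607, 2.01 and 1.72 CPM across vehicle 1 to 4, against 1.09, 2.22, 11.2 and 2.82 CPM across doxorubicin 1 to 4. Its partner Col9a2 (chr4:121039385-121055322, plus strand) was at 1.95, 0.0933, 0.711 and 0.608 CPM across vehicle 1 to 4, against 0.609, 1.23, 6.32 and 1.82 CPM across doxorubicin 1 to 4. In all of these doxorubicin 3 was the highest library by a wide margin and vehicle 2 the lowest, and doxorubicin 1 lay within the vehicle range.

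The log2 differences of these genes were the largest among the 38 tested collagens and had the largest errors. They were 1.76 ± 1.00 for Col10a1, 1.57 ± 0.81 for Col9a2, 1.26 ± 0.68 for Col9a1 and 0.98 ± 0.64 for Col9a3, and edgeR's quasi-likelihood test gave an adjusted p of 0.856 for each of the 4. They rested on 1 library. Without doxorubicin 3 they were 0.41, 0.50, 0.16 and 0.058, and without doxorubicin 2 and 3 together Col10a1 was at -0.79. The exons of Col9a3 overlap those of Tcfl5, on the opposite strand, over 6.07% of their length, and no source used here states whether counting used strand. The counts behind the lowest levels were small, with 5 Col10a1 reads in vehicle 2 and 895 in doxorubicin 3.

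Most, but not all, chondrocyte markers were highest in doxorubicin 3, as type IX and type X were. The 10 markers summed 53.5, 22.0, 31.1 and 33.4 CPM across vehicle 1 to 4, against 44.1, 48.1, 119 and 61.1 CPM across doxorubicin 1 to 4, and 9 of them were tested, with a median log2 difference of 1.55, and of 0.50 without doxorubicin 3. Acan, the cartilage proteoglycan, was at 5.81, 1.12, 2.08 and 1.82 CPM across vehicle 1 to 4, against 2.96, 4.06, 15.7 and 4.69 CPM across doxorubicin 1 to 4. Hapln1, which links that proteoglycan to hyaluronan, was at 11.5, 3.08, 11.1 and 3.04 CPM across vehicle 1 to 4, against 4.48, 6.13, 45.5 and 9.99 CPM across doxorubicin 1 to 4. Both were highest in doxorubicin 3, as were Matn3, Epyc, Cnmd, Snorc and Ucma. Sox9, the transcription factor of chondrocytes, was instead highest in vehicle 1 (6.52 CPM, against 4.02 in doxorubicin 3). Comp was highest in doxorubicin 4 (35.6 CPM, against 27.1 in doxorubicin 3) and Matn1 in vehicle 4 (0.236 CPM, against 0.0988). For Comp, 1 of the 9 tested, every doxorubicin mouse was above every vehicle mouse, beside 1.64% of all genes. Its log2 difference was 0.78 ± 0.27, with an adjusted p of 0.856 by edgeR's quasi-likelihood test. Of the 10 markers, 3 (Matn1, Snorc, Ucma) were at 0 in at least 1 library. The ends of the bones had been cut off before extraction, and the sources used here do not say how much of the growth plate stayed on each bone. The part of cartilage content in the type IX and type X values was not tested. The level per kb of Col2a1 over that of Col9a1 was highest in doxorubicin 1, at 117, and lowest in doxorubicin 3, at 5.57. The value in doxorubicin 1 rested on 25 Col9a1 counts. This ratio did not follow type I in every library. It was 48.6 in vehicle 2, which was low in type I, and 39.8 in vehicle 1, which was high.

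**Figure D4:**
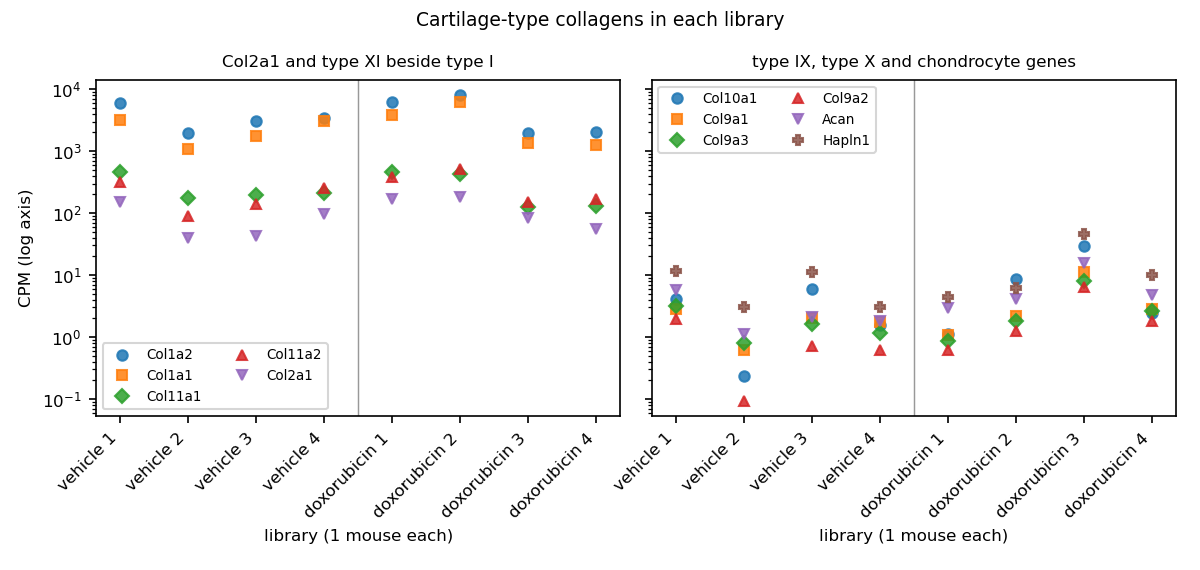
CPM (log axis) in each library of Col2a1 and the type XI genes beside type I (left) and of type IX and type X genes beside the chondrocyte genes Acan and Hapln1 (right). On the left the points of vehicle 1 and doxorubicin 1 and 2 stand high, and on the right those of doxorubicin 3 stand highest for every gene drawn.

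The start regions of 1 gene of each pattern are shown as examples. Each is the 100 bases before the RefSeq start on GRCm38.p6, 5′ to 3′ on the gene's strand. Capitals mark a CCAAT motif, read as ATTGG on this strand, in Col11a1 and a TATAAA motif in Col10a1.
Col11a1, chr3:114030440-114030539, plus strand: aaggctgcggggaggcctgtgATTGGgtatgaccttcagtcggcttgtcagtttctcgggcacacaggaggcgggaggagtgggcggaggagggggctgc
Col10a1, chr10:34389881-34389980, plus strand: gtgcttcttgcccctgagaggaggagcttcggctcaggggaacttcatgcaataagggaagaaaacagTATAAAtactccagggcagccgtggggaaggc
The TATAAA of Col10a1 begins 32 bases before the start and the ATTGG of Col11a1 79 bases before it. The motifs did not sort by pattern. Col11a2 held a TATAAA 143 bases before its start, and Col9a1 a CCAAT 18 bases before its own. RefSeq promoters were at hand for 35 of the 44 genes (38 promoters), and not for Col1a1, Col2a1, Col4a3, Col5a2, Col9a3, Col12a1, Col14a1, Col22a1 and Col26a1. In the 250 bases before the start, CCAAT on either strand was present in 13 of 38 collagen promoters (34.2%) and in 33.8% of all 32851 promoters. TATAAA, also on either strand, was present in 5 of 38 (13.2%) and in 12.4% of all. The shares among collagen genes and among all promoters were close, and a match describes the letters only.

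None of the 6 tested network collagens passed the test, and their log2 differences ran from -0.084 to 0.59. Col8a1 (chr16:57624258-57754737, minus strand), a short-chain collagen of vessel walls and of the membrane under the corneal endothelium, had the highest CPM of this list, at 43.1, 44.2, 57.0 and 43.1 CPM across vehicle 1 to 4, against 49.5, 48.0, 42.6 and 40.7 CPM across doxorubicin 1 to 4. Vehicle 3 stood above the other 7 libraries, which lay within a narrow band, and the groups overlapped. The log2 difference was -0.052 ± 0.12. Col4a1 and Col4a2, the chains of the type IV network found in nearly all basement membranes, differed by 0.22 and 0.38, and Col8a2, the partner of Col8a1, by -0.084.

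Col4a5 (chrX:141475385-141689234, plus strand), a type IV chain known from kidney and other specialised basement membranes, was scarce. It was at 0.749, 0.980, 0.432 and 0.506 CPM across vehicle 1 to 4, against 1.17, 0.691, 1.05 and 1.04 CPM across doxorubicin 1 to 4. Doxorubicin 1, 3 and 4 were above all vehicle mice, while doxorubicin 2 lay below vehicle 1 and 2. On the log2 scale the difference was 0.59 ± 0.31, with an unadjusted p of 0.0869 and an adjusted p of 0.856 by edgeR's quasi-likelihood test. Col4a4 differed by -0.035, and Col4a3 and Col4a6, at 0.0988 to 0.652 CPM and 0 to 0.263 CPM, had too few counts to test. Endothelial markers summed from 184 to 233 CPM in vehicle mice and from 192 to 271 CPM in doxorubicin mice.

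None of the 5 tested beaded-filament collagens passed the test, and their log2 differences ran from -0.16 to 0.19. Col6a3 (chr1:90765923-90843971, minus strand), the long chain of type VI, was at 78.1, 87.0, 52.1 and 71.7 CPM across vehicle 1 to 4, against 87.2, 75.5, 65.9 and 45.7 CPM across doxorubicin 1 to 4. Vehicle 3 and doxorubicin 4 were lowest, and the groups overlapped. In log2 terms the difference was -0.074 ± 0.21, and those of Col6a1 and Col6a2, the short chains, were 0.073 and 0.069. Col6a5 and Col6a6, chains that can take the place of Col6a3, were at 0.607 to 2.51 CPM and 0.263 to 0.739 CPM and differed by -0.16 and 0.19. Col6a4, at 0.0868 to 0.607 CPM, had too few counts to test.

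The muscle and tendon collagens were led by Col12a1 (chr9:79598991-79718831, minus strand), which binds to the surface of type I fibrils in tendon and periosteum. It was at 174, 129, 90.2 and 105 CPM across vehicle 1 to 4, against 206, 98.6, 72.9 and 90.1 CPM across doxorubicin 1 to 4. Doxorubicin 1 and vehicle 1 were highest, doxorubicin 3 lowest, and the groups overlapped. The fitted log2 difference was -0.091 ± 0.33, and -0.53 without doxorubicin 1. Col22a1, a collagen of the muscle-tendon junction, was at 68.7 ± 18.9 CPM (SD, n = 4) with vehicle, against 81.9 ± 37.3 CPM (SD, n = 4) with doxorubicin and differed by 0.25. Col13a1 and Col25a1, which span the membrane and act at nerve-muscle contacts, differed by 0.11 and 0.089, Col14a1, another fibril-surface collagen, by 0.13, and Col15a1, of the basement membrane zone of muscle and vessels, by 0.27. Col19a1 was at 0.0659 to 0.478 CPM and was not tested.

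The muscle content of the libraries was set beside these genes, and its part in their values was not tested. Skeletal muscle markers summed 26407, 26871, 4778 and 24798 CPM across vehicle 1 to 4, against 38700.3, 18096, 15034 and 35369 CPM across doxorubicin 1 to 4, so that vehicle 3 held the least by far and doxorubicin 1 and 4 the most. Col22a1, in contrast, had its highest levels in doxorubicin 1 and 2 and vehicle 1, as type I did, while its level in doxorubicin 4, 54.7 CPM, was close to that in vehicle 3. Tendon markers ran from 82.4 to 139 CPM in vehicle mice and from 96.9 to 177 CPM in doxorubicin mice.

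Of the other collagens, Col18a1 (chr10:77052178-77166548, minus strand) had the smallest p of all 38. It belongs to basement membranes, and a fragment of it is the angiogenesis inhibitor endostatin. It was at 5.96, 4.06, 3.22 and 5.27 CPM across vehicle 1 to 4, against 6.35, 9.04, 7.05 and 5.43 CPM across doxorubicin 1 to 4. Doxorubicin 1, 2 and 3 were above all vehicle mice, and doxorubicin 4 lay below vehicle 1. On the log2 scale the difference was 0.60 ± 0.23, with an unadjusted p of 0.0250 and an adjusted p of 0.856 by edgeR's quasi-likelihood test, and stayed between 0.41 and 0.74 when any 1 library was left out.

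Col7a1 (chr9:108953586-108984875, plus strand), the anchoring-fibril collagen of skin, was at 7.38, 5.41, 2.92 and 8.51 CPM across vehicle 1 to 4, against 12.3, 7.66, 5.80 and 13.3 CPM across doxorubicin 1 to 4. Doxorubicin 1 and 4 were above every vehicle mouse and the other two were among them. In log2 terms the difference was 0.69 ± 0.35, with an unadjusted p of 0.0793 by edgeR's quasi-likelihood test. Col28a1 (chr6:7997808-8192617, minus strand), a collagen found around Schwann cells of peripheral nerve, was the gene with the most negative difference. It was at 1.24, 1.45, 2.01 and 1.18 CPM across vehicle 1 to 4, against 1.13, 1.38, 0.955 and 0.695 CPM across doxorubicin 1 to 4. Vehicle 3 was highest, doxorubicin 1, 3 and 4 were below all vehicle mice, and the groups overlapped through doxorubicin 2. The fitted log2 difference was -0.49 ± 0.27, with an adjusted p of 0.856 by edgeR's quasi-likelihood test, while Schwann cell markers summed from 51.8 to 63.6 CPM in vehicle mice and from 52.1 to 61.9 CPM in doxorubicin mice.

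Col16a1 (chr4:130047840-130099283, plus strand), which associates with fibrils and had the highest CPM of the other collagens, was at 24.8, 12.6, 15.0 and 23.0 CPM across vehicle 1 to 4, against 27.1, 22.9, 14.9 and 19.7 CPM across doxorubicin 1 to 4. Vehicle 2 was lowest and doxorubicin 1 highest, with full overlap and a log2 difference of 0.16 ± 0.25. Col20a1 and the membrane-spanning Col23a1 differed by 0.50 and 0.15. Col17a1, a collagen of epithelial attachment, and Col26a1 were at 0.0329 to 0.120 CPM and 0 to 0.428 CPM and were not tested.

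Chains that assemble into 1 trimer were compared over the 8 libraries, in 9 pairs with both genes tested. All libraries share the variation in collagen content described above, so these correlations of log2(CPM + 0.5) describe these libraries. Col1a1 and Col1a2 had r = 0.96 and rho = 0.98 (exact permutation p = 4.96e-05 for r and 0.000397 for rho, adjusted 0.000149 and 0.00119 over the 9 pairs), with r = 0.94 after leaving out the libraries farthest from the median. Col9a1 with Col9a2 had r = 0.98 and Col9a2 with Col9a3 r = 0.97, each with rho = 0.98 and an exact permutation p of 4.96e-05 for r and 0.000397 for rho (adjusted as for type I), and r = 0.87 and 0.94 without vehicle 2 and doxorubicin 3. Col4a1 and Col4a2 had r = 0.93 and rho = 0.93 (exact permutation p = 0.000645 and 0.00223, adjusted 0.00116 and 0.00402), and r = 0.79 without vehicle 3 and doxorubicin 2. These type I, IX and IV pairs kept step from mouse to mouse, and with the group means removed r was 0.96, 0.98, 0.98 and 0.92.

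Col6a1 and Col6a2 had r = 0.95 and rho = 0.95 (exact permutation p = 0.000347 and 0.00114, adjusted 0.000781 and 0.00257), and r = 0.94 without the farthest libraries. Col5a1 and Col5a2 had r = 0.90 and rho = 0.81 (exact permutation p = 0.00263 and 0.0218, adjusted 0.00394 and 0.0327), and r = 0.89 without them. Col11a1 and Col11a2 had r = 0.81 and rho = 0.74 (exact permutation p = 0.0224 and 0.0458, adjusted 0.0289 and 0.0589), and r = 0.75 without them. The type XI pair was thus looser, with its rank correlation not passing after adjustment. Col6a1 and Col6a3 had r = 0.67 and rho = 0.48 (exact permutation p = 0.0639 and 0.243, adjusted 0.0719 and 0.273), and r = 0.62 without the farthest libraries. Col8a1 and Col8a2 had r = -0.19 and rho = 0.024 (exact permutation p = 0.665 and 0.977, adjusted 0.665 and 0.977), and r = -0.33 without them. With the group means removed, r was 0.95 for Col6a1 with Col6a2, which thus kept step as well. It was 0.90 for Col5a1 with Col5a2, 0.87 for Col11a1 with Col11a2, 0.72 for Col6a1 with Col6a3 and -0.22 for Col8a1 with Col8a2.

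**Figure D5:**
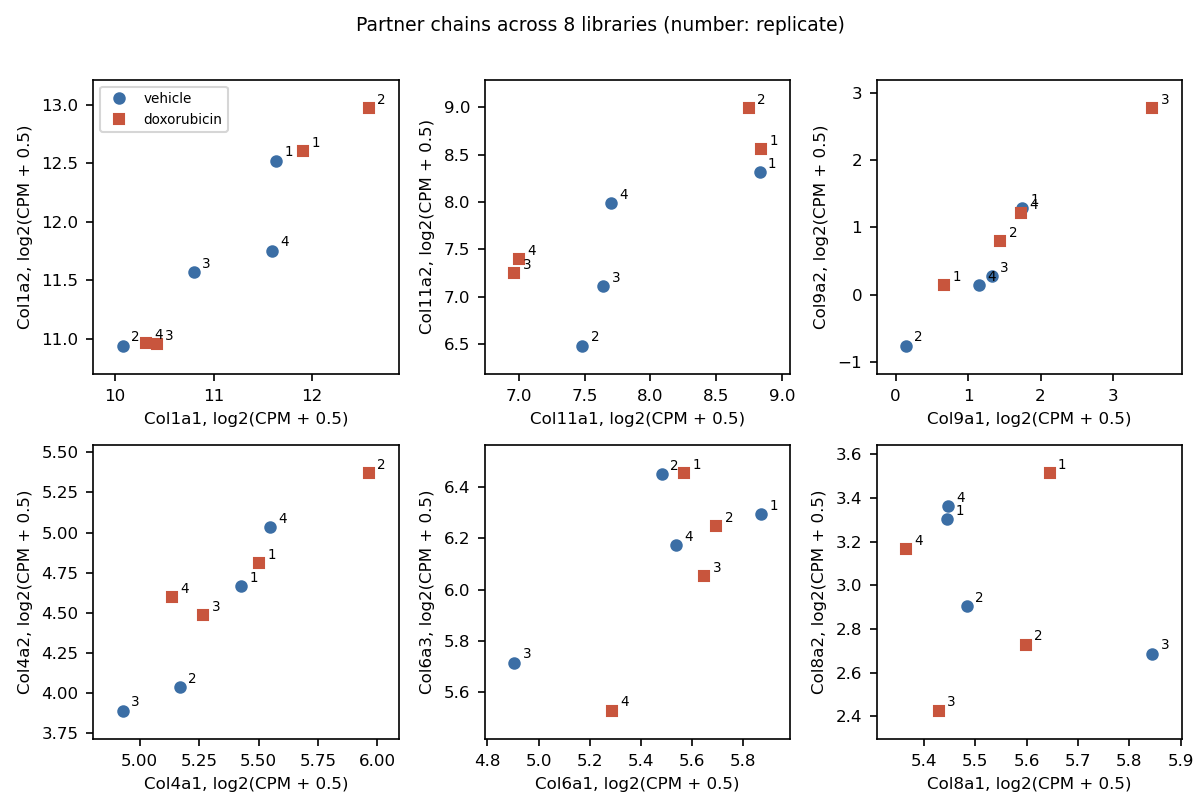
log2(CPM + 0.5) of a pair of partner chains in each library (circles vehicle, squares doxorubicin, replicate number beside each point) for 6 of the 9 pairs. Points of Col1a1 with Col1a2, Col9a1 with Col9a2 and Col4a1 with Col4a2 lie along a line (r = 0.96, 0.98 and 0.93), and those of Col8a1 with Col8a2 do not (r = -0.19).

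Several of these partners are neighbours in the genome. Col4a1 and Col4a2 lie head to head on chromosome 8 with a gap of -22 bases between their annotated spans, that is, an overlap, and Col4a4 and Col4a3 lie head to head on chromosome 1 with 71 bases between them. Col4a6 and Col4a5 on the X chromosome are head to head across 1308 bases. Col6a2 and Col6a1 lie on the same strand of chromosome 10, 85.2 kb apart. The genes of the 3 pairs with the highest r, Col9a1 with Col9a2, Col9a2 with Col9a3 and Col1a1 with Col1a2, lie on different chromosomes. Col3a1 and Col5a2 are tail to tail, 24.6 kb apart, and Col9a1 and Col19a1 tail to tail, 9.21 kb apart.

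The genes that process, bind and degrade collagen showed no call either. Of 33 genes of collagen synthesis, from prolyl and lysyl hydroxylases and chaperones to propeptide proteases and cross-linking oxidases, 0 passed edgeR's adjusted threshold, 29 had a log2 difference above 0 (beside 57.2% of all genes) and the median was 0.18. Without doxorubicin 2, 20 of 33 were above 0 and the median was 0.038. At an unadjusted p under 0.05 there were 3 of 33 on the higher side (9.09%, beside 2.13% of all genes) and 0 on the lower. Pcolce2, an enhancer of the protease that trims procollagen, was at 3.48, 1.87, 3.12 and 1.76 CPM across vehicle 1 to 4, against 5.26, 3.84, 10.5 and 5.34 CPM across doxorubicin 1 to 4. All doxorubicin mice were above all vehicle mice, with doxorubicin 3 highest. On the log2 scale the difference was 1.28 ± 0.34, with an adjusted p of 0.795 by edgeR's quasi-likelihood test. Groups did not overlap in 2 of the 33 genes, Pcolce2 and Adamts3. Both had doxorubicin on the higher side, beside 1.64% of all genes. Colgalt2, which adds galactose to hydroxylysine, differed by 0.84 ± 0.29, Plod3, a lysyl hydroxylase, by 0.30 ± 0.13, and Pcolce, the relative of Pcolce2, by 0.43 ± 0.23.

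Of 10 collagen receptors, 0 passed the adjusted threshold, 5 were above 0 and the median was -0.011. At an unadjusted p under 0.05 there were 2, both lower in mean in doxorubicin mice, beside 3.23% of all genes on that side. Gp6, the collagen receptor of platelets and megakaryocytes, was at 66.0, 85.7, 93.2 and 57.3 CPM across vehicle 1 to 4, against 37.4, 50.5, 44.8 and 46.8 CPM across doxorubicin 1 to 4. Itga2, the collagen-binding integrin subunit also carried by those cells, was at 39.0, 45.1, 48.8 and 37.4 CPM across vehicle 1 to 4, against 30.2, 35.1, 30.2 and 32.4 CPM across doxorubicin 1 to 4. For both genes, 2 of the 10 receptors, every doxorubicin mouse was below every vehicle mouse. Over all genes, groups did not overlap in 3.59% in either direction, 1.64% with doxorubicin on the higher side and the rest on the lower. In log2 terms the difference was -0.75 ± 0.17 for Gp6 and -0.41 ± 0.12 for Itga2, with adjusted p of 0.703 and 0.817 by edgeR's quasi-likelihood test. Ddr1, a receptor kinase that binds collagen, differed by 0.40 ± 0.18, and Itga11, the integrin subunit of fibroblasts, by 0.29 ± 0.23.

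Of 6 collagen-degrading proteases, 0 passed at either threshold, 5 were above 0 and the median was 0.29. Mmp14, a membrane collagenase, was at 55.6 ± 13.5 CPM (SD, n = 4) with vehicle, against 68.0 ± 14.4 CPM (SD, n = 4) with doxorubicin, and Mmp9, a gelatinase of osteoclasts and neutrophils, at 211 ± 81.6 CPM (SD, n = 4) with vehicle, against 272 ± 40.8 CPM (SD, n = 4) with doxorubicin. Mmp2, another gelatinase, was at 63.8 ± 18.3 CPM (SD, n = 4) with vehicle, against 81.8 ± 32.4 CPM (SD, n = 4) with doxorubicin. Ctsk, the protease with which osteoclasts dissolve bone collagen, was at 384 ± 158 CPM (SD, n = 4) with vehicle, against 469 ± 68.9 CPM (SD, n = 4) with doxorubicin, and its log2 difference was 0.29. The groups overlapped in each of these 4 genes.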

How the data were processed

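RNA-seq counts per gene were taken from the deposited table, 1 library for each of 8 mice. Poly-A RNA (500 ng of total RNA) was made into stranded libraries whose adaptors carry molecular identifiers, amplified over 15 PCR cycles, per the labels' protocols. The deposited values are whole numbers, and were read as RSEM expected counts, as deposited by the authors. The submitters' processing notes name STAR 2.5.3a and RSEM 1.3.0 and the build GRCh38, which is human, while the gene identifiers are those of mouse. No source used here states the role of each tool, the annotation, or whether strand or the identifiers were used, and reads may therefore include PCR copies.

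Genes were filtered with filterByExpr of edgeR 4.0.16 (minimum count 10, minimum total 15), leaving 17035. Libraries were scaled with TMM factors, and groups were compared by the robust quasi-likelihood test of edgeR, two-sided, with no covariate, Benjamini-Hochberg adjustment over all tested genes and a threshold of 0.05, in R 4.3.3. The SE was derived from its F statistic. The calls were recomputed with DESeq2 1.42.0, with limma-voom (limma 3.58.1), with other scalings and filters, with a replicate block and without single libraries; the test was checked on simulated data. Collagen genes and all gene lists were chosen with earlier results of these data known. Values in each library are given for the member with the highest mean CPM of each list, the 8 tested members with the smallest p, and Col1a1, Col1a2, Col2a1, Col3a1 and Col10a1; of the synthesis, receptor and protease lists, up to 4 genes each with the smallest p. Col27a1 and others fall under more than 1 of these.

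Lengths, exons and positions are those of GENCODE M21 (GRCm38), matched by identifier for 42 of 44 genes with version and for all 44 without, using the transcript with the longest coding sequence. No library repeats another: chi-square divided by its degrees of freedom was at least 27.3 and at most 278 over the 28 possible pairs.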

Additional observations from a re-analysis of the deposited data

Results flagged for a closer look

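Of 50 groups of 4 mice examined (the named collagens, library shares and ratios), 4 held a library whose gap to its nearest neighbour, as a share of the group's range, was above Dixon's critical value for 4 samples; chance flags about 1 in 20 groups. Col27a1 was at 33.2 CPM in doxorubicin 3, while the other doxorubicin mice lay between 26.5 and 27.4 CPM. Col11a1 was at 454 CPM in vehicle 1, against 178 to 207 CPM in the other vehicle mice, and near the levels of doxorubicin 1 and 2. Col8a1 was at 57.0 CPM in vehicle 3, against 43.1 to 44.2 CPM in the others. The ratio of Col1a1 to Col1a2 counts was 0.892 in vehicle 4, against 0.540 to 0.587 in the others.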

How the results depend on the processing

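No collagen gene was called under any setting run, at an adjusted p under 0.05 or under 0.1. The count at an unadjusted p under 0.05 (2 genes) was 1 with scaling by library size only and 1 without doxorubicin 2 and 3 together (a setting chosen after seeing the data), and 0 to 6 when 1 library was left out. With the replicate block it was 3, Col7a1 being added, while all genes went from 913 to 1466; the block changed no call. Mice were not taken as paired by number: deviations of same-numbered libraries from their group means had correlations of 0.34, -0.27, 0.43 and 0.09, although 5 of 8 libraries correlated best with their own number. The count of differences above 0 (31) was 19 without vehicle 3 and doxorubicin 1 together and 20 to 34 without 1 library. Col11a1 was at -0.031 with limma-voom, -0.039 with the replicate block and -0.30 without vehicle 3 and doxorubicin 1. Col3a1 was at -0.033 with scaling by library size only and -0.42 without that pair, which also gave 0.010 for Col8a1 and -0.075 for Col16a1. Without doxorubicin 2 and 3, Col10a1 was at -0.79 and Col12a1 at 0.21. Leaving out 1 library gave -0.11 to 0.73 for Col1a1, -0.11 to 0.69 for Col1a2, -0.32 to 0.32 for Col3a1, -0.24 to 0.077 for Col6a3, -0.12 to 0.017 for Col8a1, -0.20 to 0.55 for Col11a1, -0.53 to 0.11 for Col12a1 and -0.0022 to 0.32 for Col16a1. The causes of these shifts were not tested. With 4 mice a group and a biological coefficient of variation of 0.219 over all genes, single libraries set the direction of small differences. For the Col1a1 to Col1a2 ratio, an exact sign-flip test of same-numbered mice gave p = 0.75, with 0.125 the smallest it allows.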
